A study of Mus musculus with 8 samples.

Results

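The 41 genes described here act in the G2 phase and in mitosis: mitotic cyclins and kinases, spindle checkpoint and kinetochore proteins, condensin subunits, and proteins of the spindle and of cytokinesis. They were chosen by function and matched by symbol in a table of 22564 mouse genes, in which all 41 were found, none of them in more than 1 row. Kinesins were left out of the choice, although Cenpe, which was kept, is itself a kinesin motor of the kinetochore. The samples were skin of male C57Bl/6 mice 4 weeks of age. The irradiated group was 4 libraries of skin taken 24 h after 1 dose of 35 Gy, given at 750 cGy/min as 6-MeV electrons. The nonirradiated group was 4 libraries of skin from areas outside the beam, from mice of the same strain. Total RNA was depleted of ribosomal RNA and sequenced as stranded libraries. Nothing in the labels says whether the 4 libraries of a group are 4 mice, so a p-value here reflects library-to-library spread, some of which may be technical.

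A dividing cell enters mitosis when Cdk1, bound to cyclin A or B, becomes active, and leaves it when the anaphase-promoting complex has its cyclins and securin degraded. In between, condensin compacts the chromosomes, kinetochores attach them to the spindle, and the spindle checkpoint holds anaphase back until all are attached. Most of these genes are transcribed late in the cell cycle, and in skin the dividing cells are mainly those of the basal epidermis and, in growing hair follicles, of the hair matrix. Because whole skin was sequenced, fewer dividing cells and less RNA per cell cannot be told apart.

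The late cell cycle timing of such genes is linked to 2 short promoter elements, the CHR (searched here only as TTTGAA or TTCGAA) and the CCAAT box. RefSeq promoter windows of 300 bases (250 before to 50 after the start, build GRCm38.p6) were found for 34 of the 41 genes, in 37 windows. TTTGAA stood on either strand in 29 of the 37 windows (78.4%), against 17.9% of the 32851 windows of all genes, and TTCGAA in 3 (8.11%, against 1.56%). CCAAT stood on either strand in 30 (81.1%, against 37.4%), and 27 windows (73%) held both TTTGAA and CCAAT, against 6.95% of all windows. Of 37 matches to TTTGAA over all windows, 27 lay from 50 bases before the start onward. Bub3, Ect2 and Prc1 had 2 overlapping windows each, so a site in both was counted 2 times. By gene, TTTGAA was found for 26 of the 34, CCAAT for 27 and both for 24. Different motifs overlapped in 1 place. The stretches below run from 150 bases before to 30 bases after the start in the direction of transcription, and capitals mark TTTGAA or TTCGAA and CCAAT on either strand. The first 4 belong to the genes that were lower in irradiated skin in the test on read counts given further on. The others are Cdk1 and the B cyclins, with Ccnb1 shown as a case that held CCAAT but neither TTTGAA nor TTCGAA. Other forms of the CHR were not searched. They lie at chr7:135716350-135716529 (minus strand, Mki67), chr1:189688057-189688236 (minus, Cenpf), chr1:139454623-139454802 (plus, Aspm), chr7:80294301-80294480 (plus, Prc1), chr10:69352883-69353062 (minus, Cdk1), chr9:70421525-70421704 (minus, Ccnb2) and chr13:100786457-100786636 (minus, Ccnb1).
Mki67: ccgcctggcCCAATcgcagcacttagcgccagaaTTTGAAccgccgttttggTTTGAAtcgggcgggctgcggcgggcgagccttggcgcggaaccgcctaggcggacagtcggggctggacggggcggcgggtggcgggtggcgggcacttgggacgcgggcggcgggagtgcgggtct
Cenpf: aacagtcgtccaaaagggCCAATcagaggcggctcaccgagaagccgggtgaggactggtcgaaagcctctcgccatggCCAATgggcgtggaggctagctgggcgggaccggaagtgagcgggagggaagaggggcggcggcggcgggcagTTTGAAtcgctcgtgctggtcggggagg
Aspm: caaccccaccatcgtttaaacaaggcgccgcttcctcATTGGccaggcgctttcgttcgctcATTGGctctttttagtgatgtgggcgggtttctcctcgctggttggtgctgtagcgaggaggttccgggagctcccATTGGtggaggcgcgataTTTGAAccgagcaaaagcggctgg
Prc1: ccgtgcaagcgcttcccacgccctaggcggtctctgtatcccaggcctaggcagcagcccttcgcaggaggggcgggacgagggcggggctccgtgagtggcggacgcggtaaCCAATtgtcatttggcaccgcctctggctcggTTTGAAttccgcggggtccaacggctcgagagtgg
Cdk1: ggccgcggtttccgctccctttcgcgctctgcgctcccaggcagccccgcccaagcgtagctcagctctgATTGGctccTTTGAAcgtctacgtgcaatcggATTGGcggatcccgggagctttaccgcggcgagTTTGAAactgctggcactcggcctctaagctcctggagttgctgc
Ccnb2: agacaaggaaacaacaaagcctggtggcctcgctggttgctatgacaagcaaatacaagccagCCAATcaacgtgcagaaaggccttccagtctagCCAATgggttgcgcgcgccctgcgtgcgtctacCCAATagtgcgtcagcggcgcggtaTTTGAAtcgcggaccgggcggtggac
Ccnb1: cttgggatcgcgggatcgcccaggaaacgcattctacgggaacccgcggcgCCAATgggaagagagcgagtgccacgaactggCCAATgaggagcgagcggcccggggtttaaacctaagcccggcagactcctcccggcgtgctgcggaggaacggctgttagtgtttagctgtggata
A match describes letters only, and binding at it was not measured. Nuf2, Nusap1, Mad2l1, Pttg1 and Birc5 held none of these motifs in their windows.

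**Figure D1:**
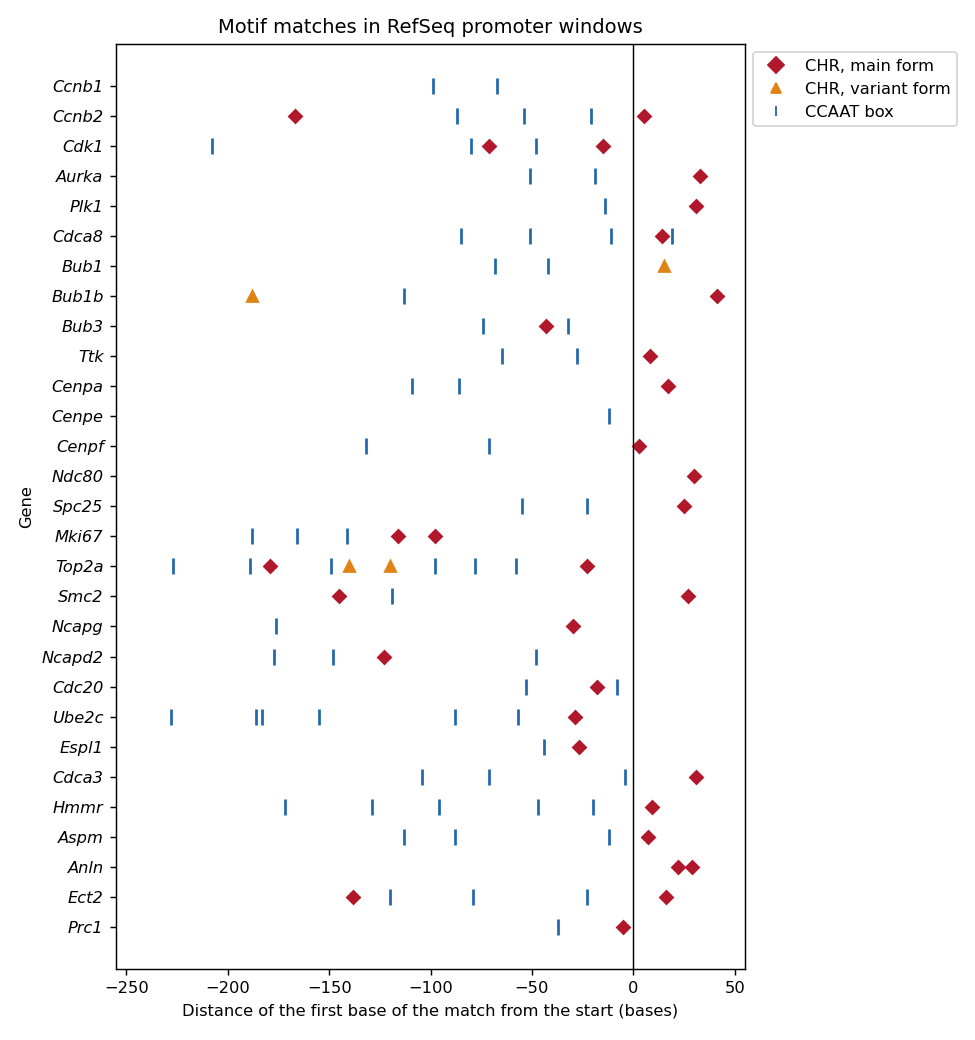
Positions of TTTGAA or TTCGAA and of CCAAT (either strand) in the promoter windows of the 29 matched genes with at least 1 match, as bases from the start (x axis), 1 row per gene and its first window where there are several. Diamonds mark TTTGAA, triangles TTCGAA and bars CCAAT. Most diamonds lie near the start (over all 37 windows, 27 of 37 from 50 bases before it onward), and most bars lie upstream of it.

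The deposited table gives 2 values per gene and library. FPKM (fragments relative to transcript length and library size) allows levels to be set beside each other between genes. A column of estimated counts gave back whole reads, 5036285 to 6626658 per library, which are used here as RPM, reads scaled to 1000000 per library. The groups differed in more than dose. Genes with few reads piled up at 19.97 to 78.3 reads in irradiated libraries and at 4.13 to 15.6 in nonirradiated ones, and a value above 0 was listed for 9311 to 12921 and 12566 to 14610 genes. Hair matrix and inner root sheath markers summed to 530 to 1075 FPKM in irradiated and 1669 to 2344 in nonirradiated libraries, with at most 1 of 12 (Msx2) at 0. Interfollicular keratinocyte markers summed to 3450 to 5314 and 2483 to 3199, and skeletal muscle markers to 4801 to 6991 and 1826 to 5492. For muscle, nonirradiated replicate 1 was at 5492 and replicates 2 to 4 at 1826, 2111 and 2104, so only replicate 1 reached the irradiated range. Keratinocyte and fibroblast markers were present in every library. Sebaceous gland markers summed to 865 to 1013 in irradiated and 248.8 to 416 in nonirradiated libraries, with Awat2 at 0 in all 4 irradiated libraries and 1 nonirradiated one. Adipocyte markers summed to 1464 to 2323 and 1183 to 1450. As a mean of log2(FPKM + 1) over the markers, the groups overlapped for adipocyte markers (5.01 to 5.82 and 5.21 to 5.50). They also overlapped for interfollicular keratinocyte markers (7.22 to 8.03 and 6.89 to 7.42). Fibroblast (387 to 457 and 296 to 402), haematopoietic (22.5 to 99.8 and 41.02 to 55.5), melanocyte (27.6 to 195 and 76.0 to 227) and endothelial (41.1 to 83.8 and 70.5 to 103) sums overlapped. Of 8 haematopoietic markers in the table, 2 to 5 were at 0 in irradiated and 1 in nonirradiated libraries, with the B cell gene Cd79a at 0 in all 8. The melanocyte gene Mlana was at 0 in all 4 irradiated libraries, and the endothelial gene Cldn5 in 3 of them and in 1 nonirradiated one. A fit with the skeletal muscle level as a covariate is given further on, but that level went largely with the group, so the fit cannot separate them. Otherwise the part of these differences in the results on mitosis genes was not tested.

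The 41 genes together took 1352, 1561, 1060 and 1354 RPM in irradiated replicates 1 to 4 and 3145, 3686, 3333 and 4423 in nonirradiated replicates 1 to 4. The groups did not overlap. Without Mki67, the most abundant of them in nonirradiated skin, the sums were 844 to 1264 and 1958 to 2726 RPM, still without overlap. In FPKM, the sums were 484, 442, 276 and 365 in irradiated and 625, 582, 502 and 802 in nonirradiated libraries.

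Single genes were more scattered. In limma's moderated test on log2(FPKM + 1), 33 of 13324 genes passed an adjusted p of 0.05 (0.248%), 17 of them lower in irradiated skin (0.128%). Of the 41 mitosis genes, all of them tested, 1 passed, Mki67, which was lower. An unadjusted p under 0.05 with a lower irradiated level was found for 21 (51.2%), against 7.21% of all genes, and with a higher level for 1, Smc4, against 5.68%. The log2 change was below 0 for 39 of 41 (95.1%), against 56.1% of all genes, and its median was −1.38, against −0.11 over all genes. The FPKM groups did not overlap for 14 genes that were lower in every irradiated library (34.1%, against 4.48%), and in RPM this held for 18 (43.9%, against 6.21%). One gene, Smc4, was higher in every irradiated library in FPKM (3.99% of all genes), and none was in RPM (4.3% of all genes).

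On the reads, edgeR's quasi-likelihood test called 133 of 12296 genes (1.08%), 59 of them lower (0.48%). It called 4 of the 41 mitosis genes (9.76%), all lower: Mki67, Cenpf, Prc1 and Aspm. All 41 had a log2 change below 0, against 57.1% of all genes, with a median of −1.51, and 13 had an unadjusted p under 0.05, all lower (5.48% of all genes). Mki67 was the 1 gene of the 41 that passed in both limma and edgeR. DESeq2 on the same reads called 8 of the 41 lower (against 2.57% of all genes tested), and limma on log2 RPM called 6 (against 0.773%).

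**Figure D2:**
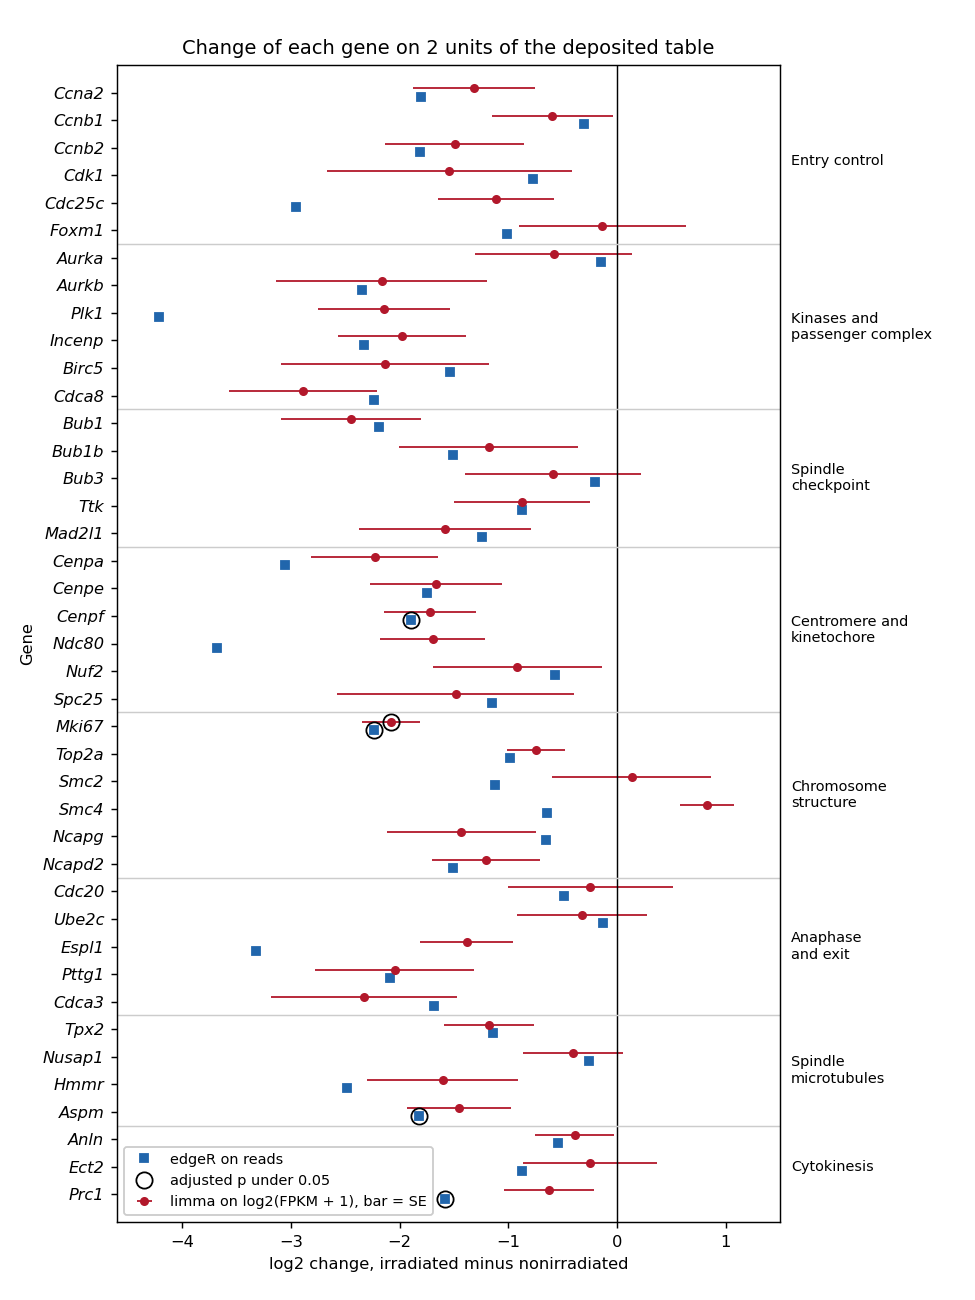
Log2 change of each of the 41 genes, irradiated minus nonirradiated, by function group, from limma on log2(FPKM + 1) with its standard error (red circles) and from edgeR on reads (blue squares). Rings mark an adjusted p under 0.05. The points lie left of 0 for 39 genes in FPKM and for all 41 in reads, and Smc4 and Smc2 lie on opposite sides in the 2 units.

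Mki67 encodes Ki-67, the protein that coats mitotic chromosomes and is the standard marker of cycling cells (chr7:135689784-135716361, minus strand, build mm10). Its level was 26.3, 20.6, 14.9 and 28.6 FPKM in irradiated replicates 1 to 4 and 90.3, 92.2, 87.2 and 117 in nonirradiated replicates 1 to 4, means of 22.6 ± 6.14 and 96.6 ± 13.5 FPKM (SD, n = 4 each). Every irradiated library lay well below every nonirradiated one. The log2 change was −2.08 (SE 0.27, limma adjusted p = 0.0133). Reads showed the same order, with 370, 297, 216 and 405 RPM against 1169, 1490, 1375 and 1698, a log2 change of −2.24 (edgeR adjusted p = 0.000339). By FPKM Mki67 ranked 1 of the 41 in nonirradiated skin and 5 in irradiated skin. In mean RPM, which is not scaled to transcript length, it was the highest in both. Its means were 322 RPM in irradiated and 1433 in nonirradiated skin, with Top2a next at 168 and 314. The limma call was lost without nonirradiated replicate 2, 3 or 4 (adjusted p = 0.0765, 0.0572 and 0.0646) and with the skeletal muscle level as a covariate (log2 change −1.98, adjusted p = 0.309), a fit in which no gene passed. The edgeR call held without each library in turn, with adjusted p from 0.000234 to 0.00497.

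Top2a, the topoisomerase that disentangles sister chromatids, was at 28.9 ± 7.90 FPKM in irradiated and 48.1 ± 5.98 in nonirradiated skin (SD, n = 4 each), with values of 39.1, 23.3, 22 and 31.2 against 50.1, 47, 40.6 and 54.8. The groups did not overlap, and the log2 change was −0.74 (SE 0.27, limma adjusted p = 0.273; −0.99, edgeR adjusted p = 0.059). Ncapd2, a regulatory subunit of condensin I, likewise stayed apart, at 4.27, 1.88, 3.48 and 1.24 against 9, 7.55, 6.93 and 5.4 FPKM (log2 change −1.21, SE 0.49, limma adjusted p = 0.337). Ncapg, another condensin I subunit, ranged from 0.818 to 8.47 FPKM in irradiated and 6.46 to 26.2 in nonirradiated libraries, with overlap.

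Smc4 and Smc2 are the paired ATPase core of condensin, and their direction depended on the unit. Smc4 (chr3:69004738-69034623, plus strand) was at 108, 81.7, 76.6 and 66.8 FPKM in irradiated and 45, 44.3, 36.9 and 59.5 in nonirradiated libraries, 83.3 ± 17.7 against 46.4 ± 9.47 (SD, n = 4 each). All irradiated values were the higher ones, with a log2 change of 0.83 (SE 0.25, limma adjusted p = 0.190). In RPM the same libraries held 93.4, 196, 102 and 174 against 158, 205, 184 and 285, which overlap, with a log2 change of −0.64 (edgeR adjusted p = 0.441). Smc2 was at 66.8, 9.05, 6.03 and 54.8 FPKM against 12.8, 14.5, 19.1 and 41.7, a log2 change of 0.14 (SE 0.73, limma adjusted p = 0.958). In RPM it was lower in every irradiated library, at 82.3, 53.7, 46.2 and 66.4 against 86, 122, 125 and 176 (log2 change −1.12, edgeR adjusted p = 0.0916), and DESeq2 on the same reads called it lower (−1.07, adjusted p = 0.0257). The FPKM value per RPM varied between libraries 5.79-fold for Smc4 and 6.94-fold for Smc2. It varied over 2 times for 18 of the 41 genes. The sources used here do not give how FPKM was derived from the counts, and neither unit was shown to be the better one for these genes.

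**Figure D3:**
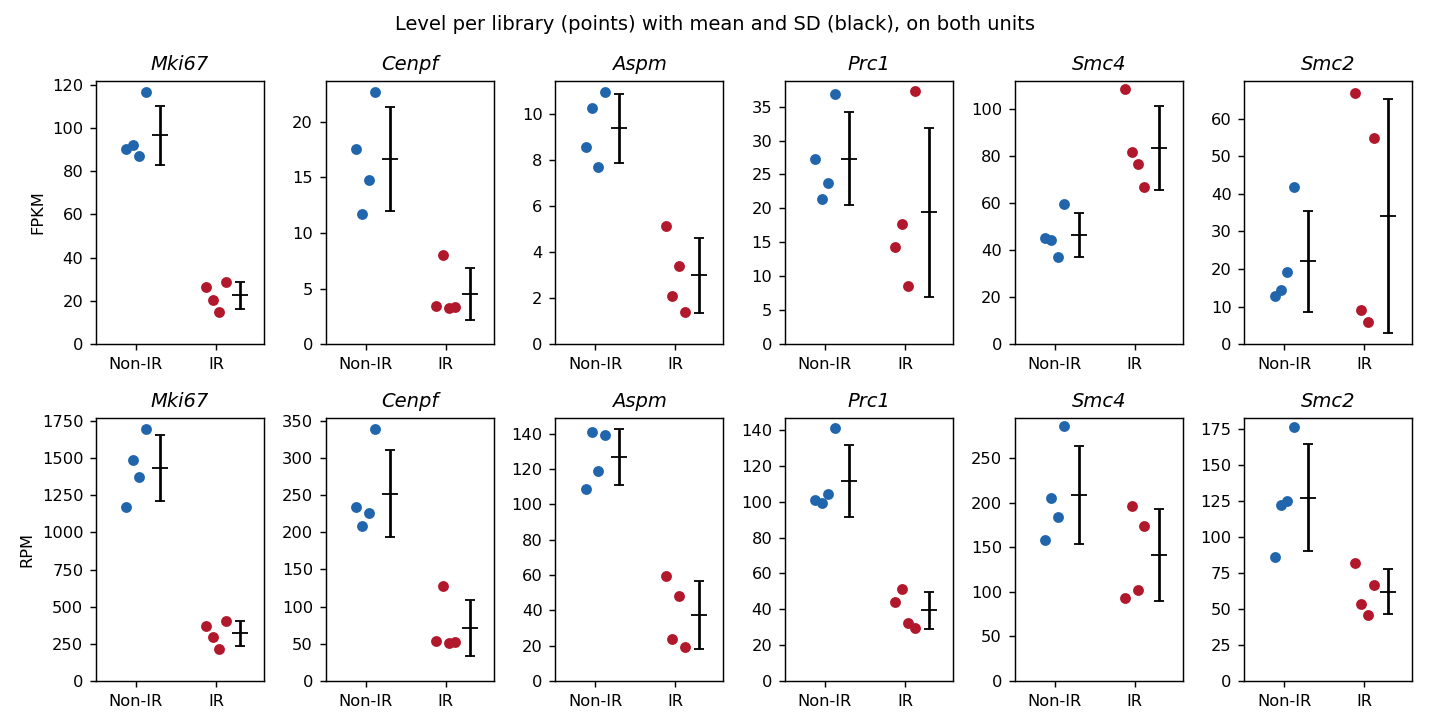
Level of Mki67, Cenpf, Aspm, Prc1, Smc4 and Smc2 in each of the 8 libraries (points) with the mean and SD of each group of 4 (black), as FPKM in the upper row and as RPM in the lower row. Mki67 separates the groups in both units, whereas Smc4 is higher in the 4 irradiated libraries by FPKM (66.8 to 108 against 36.9 to 59.5) and not by reads.

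Among the 6 centromere and kinetochore genes, all were below 0 in both fits, with a median log2 change of −1.68 in FPKM, and 4 had FPKM groups that did not overlap. Cenpf, a large kinetochore protein that accumulates in G2 (chr1:189640606-189688086, minus strand), was at 3.46, 7.99, 3.21 and 3.38 FPKM in irradiated and 17.5, 11.7, 14.7 and 22.6 in nonirradiated libraries. The highest irradiated library, replicate 2, stayed below the lowest nonirradiated one. The means were 4.51 ± 2.33 and 16.6 ± 4.65 (SD, n = 4 each; log2 change −1.72, SE 0.43, limma adjusted p = 0.1199). In RPM, 53.9, 128, 51.5 and 52.8 stood against 234, 208, 226 and 339, and Cenpf fell by 1.899 on the log2 scale (edgeR adjusted p = 0.0159). This call was lost without irradiated replicate 1 or 3 or nonirradiated replicate 4 (adjusted p = 0.0606, 0.0677 and 0.0665), and without irradiated replicates 1 and 4 together (0.0619).

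Cenpa, the histone H3 variant that marks centromeres, was listed at 0 in irradiated replicates 1, 3 and 4 and at 2.51 FPKM in replicate 2, against 3.21, 7.58, 7.02 and 4.82. The groups stayed apart (log2 change −2.23, SE 0.58, limma adjusted p = 0.145). Ndc80, the microtubule-binding core subunit of the outer kinetochore, was listed at 0 in irradiated replicates 1, 2 and 4 and at 0.963 FPKM in replicate 3, against 2.19, 4.91, 1.57 and 3.47 (log2 change −1.70, SE 0.48, limma adjusted p = 0.167). Its partners in the same complex overlapped: Spc25 was at 0, 16.2, 0 and 25.1 against 11, 21.4, 4.35 and 18.2 FPKM, and Nuf2 at 0 to 8.17 against 3.86 to 6.25. The motor Cenpe was lower without overlap, at 2.65, 7.97, 4.31 and 0.363 against 9.32, 9.72, 10.9 and 17.2 FPKM (log2 change −1.66, SE 0.60, limma adjusted p = 0.279).

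The 6 mitotic kinases and chromosomal passenger genes had the lowest group median, −2.14 on the log2(FPKM + 1) scale, and each was listed at 0 in at least 1 irradiated library. The passenger complex places Aurora B kinase at centromeres. Its subunit borealin (Cdca8) was at 0, 0.427, 5.72 and 0 FPKM in irradiated and 13, 18, 9.32 and 9.52 in nonirradiated libraries (log2 change −2.89, SE 0.68, limma adjusted p = 0.103; edgeR −2.24, adjusted p = 0.846). In RPM its groups overlapped, since irradiated replicate 3, at 12.2, lay above nonirradiated replicates 1 (10.1) and 4 (7.651). In limma on FPKM Cdca8 had the lowest log2 change of the 41, whereas in edgeR on reads Plk1 had the lowest (−4.21). Cdca8 passed the limma threshold only when irradiated replicate 3 was left out (−3.53, adjusted p = 0.0359). The scaffold Incenp was also lower without overlap, at 0, 4.14, 2.13 and 1.81 against 10.1, 12.6, 7.12 and 7.89 FPKM (log2 change −1.98, SE 0.59, limma adjusted p = 0.188).

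The kinase Aurkb was at 0, 22.9, 0.684 and 0 FPKM against 17.6, 5.43, 7.96 and 14.3, so that irradiated replicate 2 was the highest of all 8 libraries in FPKM (log2 change −2.17, SE 0.97, limma adjusted p = 0.382). Survivin (Birc5) was at 0, 0, 4.23 and 24 against 18.7, 7.4, 12.9 and 20.3 FPKM, with irradiated replicate 4 the highest in FPKM (log2 change −2.14, SE 0.96, limma adjusted p = 0.382). In RPM neither was the highest: Aurkb in irradiated replicate 2, at 10.6, lay below nonirradiated replicates 1 (20.8) and 4 (12.5), and Birc5 in irradiated replicate 4, at 27.4, lay below nonirradiated replicate 1 (36.3). Among the irradiated libraries the highest value was in replicate 2 for Aurkb and in replicate 4 for Birc5, in both units. Plk1, the polo kinase that drives centrosome maturation and mitotic entry, was listed at 0 in irradiated replicates 1, 2 and 4 and at 1.11 FPKM in replicate 3, against 7.68, 1.55, 2.41 and 9.65 (log2 change −2.14, SE 0.60, limma adjusted p = 0.164). Aurka, the spindle pole kinase, ranged from 0 to 8.41 and from 2.95 to 7.57 FPKM, with overlap.

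**Figure D4:**
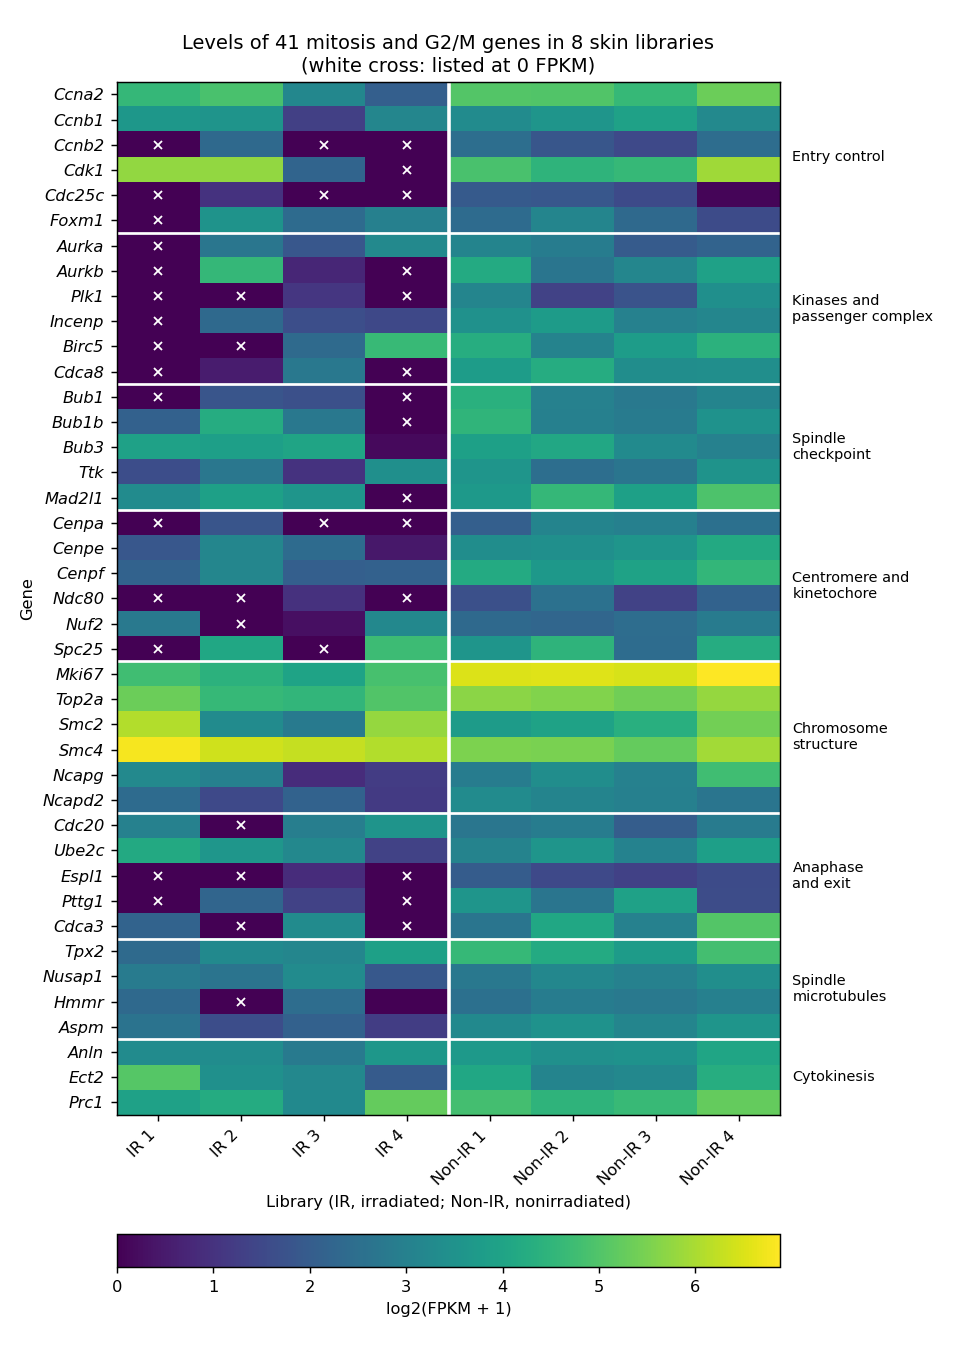
FPKM of all 41 genes in the 8 libraries, by function group and on a log2(FPKM + 1) colour scale, with a cross where 0 is listed. Values of 0 are found only in irradiated libraries, mostly in replicates 1 and 4, which list 15 and 14 of the 41 genes at 0.

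Of the 6 genes of mitotic entry, none passed either test and none had FPKM groups that stayed apart. The median log2 change was −1.21. Cyclin A2 (Ccna2) was at 22.9, 28.8, 8.16 and 3.22 FPKM in irradiated and 31.8, 31.3, 23.5 and 39.3 in nonirradiated libraries (log2 change −1.31, SE 0.56, limma adjusted p = 0.362). Its reads did not overlap, at 33.6, 59.9, 21.7 and 7.21 RPM against 92.3, 105, 87.4 and 119 (edgeR −1.80, adjusted p = 0.112). Cdk1 differed widely within the irradiated group, with 53, 53.3, 3.61 and 0 FPKM against 28.9, 21.3, 23.5 and 58.6 (log2 change −1.54, SE 1.12, limma adjusted p = 0.608). Replicates 1 and 2 lay within the nonirradiated range, and replicates 3 and 4 below it.

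The B cyclins are the main mitotic partners of Cdk1, and neither passed a test. Ccnb2 was listed at 0 in irradiated replicates 1, 3 and 4 and at 4.08 FPKM in replicate 2, against 4.62, 2.57, 1.89 and 4.53 (log2 change −1.49, SE 0.64, limma adjusted p = 0.360). Ccnb1 was at 11.5, 10.9, 1.46 and 7.94 against 8.88, 10.9, 14.3 and 8.43 FPKM (log2 change −0.59, SE 0.56, limma adjusted p = 0.694). Cdc25c, a phosphatase that activates Cdk1, ranged from 0 to 1.01 and from 0.0663 to 2.87 FPKM. Foxm1, a transcription factor of late cell cycle genes, ranged from 0 to 10.7 and from 1.98 to 7.7 FPKM, with a log2 change of −0.13 in FPKM. In edgeR on reads the change of Foxm1 was −1.01 (adjusted p = 0.941), and its FPKM per RPM varied 5.13-fold between libraries.

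The 5 spindle checkpoint genes had a median log2 change of −1.18. The kinase Bub1 was lower without overlap, at 0, 2.52, 2.19 and 0 FPKM against 19.8, 7.07, 5.87 and 7.63 (log2 change −2.45, SE 0.65, limma adjusted p = 0.146). Mad2l1, which inhibits Cdc20 at unattached kinetochores, was at 8.99, 14, 11 and 0 against 11.9, 23, 14.1 and 29.9 FPKM (log2 change −1.58, SE 0.79, limma adjusted p = 0.434). Bub3, the adaptor that brings Bub1 to kinetochores, was at 14.2, 13.8, 15.1 and 0.133 against 14, 16.5, 8.73 and 7.1 FPKM (log2 change −0.59, SE 0.81, limma adjusted p = 0.801). For both genes irradiated replicate 4 was the lowest of all 8 libraries. The checkpoint kinase Ttk (1.02 to 9.78 against 4.63 to 11.1) and Bub1b (0 to 18.1 against 6.24 to 21.5) overlapped in FPKM. In RPM Bub1b did not overlap, at 16.8, 22.6, 16.0 and 0 against 46.9, 39.7, 34.8 and 29.9 (edgeR log2 change −1.51, adjusted p = 0.751), and its FPKM per RPM varied 4.56-fold.

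The 5 genes of anaphase and mitotic exit were all below 0, with a median log2 change of −1.38. Separase (Espl1), the protease that cuts cohesin, was listed at 0 in irradiated replicates 1, 2 and 4 and at 0.831 FPKM in replicate 3, against 2.97, 1.85, 1.51 and 1.99 (log2 change −1.38, SE 0.43, limma adjusted p = 0.208). Its groups did not overlap. Securin (Pttg1), the inhibitor of separase, was at 0, 3.74, 1.57 and 0 against 10.9, 5.41, 14.4 and 2.02 FPKM (log2 change −2.05, SE 0.73, limma adjusted p = 0.273). Cdca3 was counted in this group, although it takes part in the degradation of Wee1 at mitotic entry. It was at 3.54, 0, 9.06 and 0 against 5.36, 16.2, 7.07 and 31.9 FPKM (log2 change −2.33, SE 0.86, limma adjusted p = 0.286).

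The partners of the anaphase-promoting complex had the smallest log2 changes of this group, well within their standard errors. Ube2c, its ubiquitin-conjugating enzyme, was at 17, 11.2, 8.21 and 1.55 FPKM against 7.48, 10.9, 7.32 and 13.8 (log2 change −0.32, SE 0.60, limma adjusted p = 0.862). Cdc20, its mitotic co-activator, ranged from 0 to 10.7 and from 3.08 to 6.36 FPKM (log2 change −0.24, limma adjusted p = 0.927). Ube2c overlaps the muscle troponin gene Tnnc2 by 1662 bp on the opposite strand.

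All 4 spindle microtubule proteins were below 0, with a median log2 change of −1.31. Aspm, a spindle pole protein (chr1:139454772-139494091, plus strand), was at 5.12, 2.11, 3.39 and 1.39 FPKM in irradiated and 8.59, 10.3, 7.7 and 11 in nonirradiated libraries. The groups stayed apart, at 3.002 ± 1.64 and 9.38 ± 1.5002 (SD, n = 4 each; log2 change −1.45, SE 0.48, limma adjusted p = 0.233). Its reads, at 59.3, 23.7, 48 and 19.3 RPM against 109, 141, 119 and 140, fell by 1.83 on the log2 scale (edgeR adjusted p = 0.0360). This call was lost without irradiated replicate 2 or 3 or nonirradiated replicate 2, 3 or 4 (adjusted p = 0.105, 0.0657, 0.128, 0.104 and 0.122). Tpx2, which activates Aurora A on the spindle, was at 4.22, 8.59, 7.91 and 14 against 23.3, 17.4, 12.8 and 27.2 FPKM (log2 change −1.17, SE 0.42, limma adjusted p = 0.272), which overlap, whereas its reads did not (19.9 to 66.5 against 70.1 to 127 RPM; edgeR −1.14, adjusted p = 0.195). Hmmr was at 4.14, 0, 4.47 and under 0.001 FPKM against 4.85, 6.47, 5.86 and 7.03, without overlap (log2 change −1.60, SE 0.69, limma adjusted p = 0.366). Nusap1, which bundles spindle microtubules, was at 6.21, 5.25, 9.01 and 2.74 against 5.74, 8.11, 7.06 and 9.47 (log2 change −0.40, SE 0.46, limma adjusted p = 0.753).

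The 3 cytokinesis genes had the smallest group median in FPKM, −0.39. Prc1, which bundles the antiparallel microtubules of the central spindle (chr7:80294450-80316259, plus strand), was at 14.3, 17.7, 8.56 and 37.2 FPKM against 27.2, 21.3, 23.8 and 36.9, with overlap (log2 change −0.62, SE 0.42, limma adjusted p = 0.570). Its reads did not overlap, at 44, 51.2, 32.3 and 29.8 RPM against 101, 99.1, 104 and 141, and fell by 1.58 on the log2 scale (edgeR adjusted p = 0.0190). FPKM per RPM varied 5.82-fold for this gene, and the read call was lost without irradiated replicate 3 or nonirradiated replicate 2, 3 or 4 (adjusted p = 0.0556, 0.0565, 0.0832 and 0.0806). Its whole span is overlapped by Rccd1 on the opposite strand (21810 bp), so its values are uncertain. The ring scaffold anillin (Anln), at 9.02, 9.24, 6.07 and 11.5 against 12, 10, 10.4 and 15.4 FPKM, had a log2 change of −0.39 (SE 0.36, limma adjusted p = 0.692). Ect2, the exchange factor that activates RhoA at the cleavage furrow, was at 32.5, 9.92, 8.32 and 2.91 against 16, 7.63, 8.24 and 18.5 FPKM (log2 change −0.25, SE 0.62, limma adjusted p = 0.903). In RPM it was at 24.6, 25.8, 9.51 and 15.7 against 36.1, 22.8, 24.3 and 47.5, which overlap (edgeR log2 change −0.88, adjusted p = 0.699). The FPKM per RPM of Ect2 varied 7.12-fold.

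Another 7 of the 41 overlap a neighbouring gene in the annotation, and their values are uncertain to that extent: Ccna2 (Exosc9), Cdc25c (Gm3550), Foxm1 (Tex52), Bub3 (Fgfr2, over the whole gene), Ncapg (Lcorl), Cdc20 (Elovl1) and Nusap1 (Oip5). Tex52 lies on the same strand as Foxm1 and the others lie opposite. Whether the counting used strand is not given in the sources used here.

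Zeros were unevenly spread. Irradiated replicates 1 to 4 listed 15, 8, 4 and 14 of the 41 genes at 0, and no nonirradiated library listed any. At least 1 irradiated zero with no nonirradiated one was found for 22 genes (53.7%), against 29.7% of all genes tested. Ccnb2, Cdc25c, Plk1, Cenpa, Ndc80 and Espl1 were at 0 in 3 irradiated libraries, and no gene was at 0 in all 4. The libraries with the most zeros were also those where genes with few reads piled up highest, at 78.3 and 73.3 reads in replicates 1 and 4, against 34.7 and 19.97 in replicates 2 and 3. Genes that every cell uses were touched too: of 75 cytosolic ribosomal protein genes, 0 to 18 were at 0 in an irradiated library and 0 to 3 in a nonirradiated one. A listed 0 is therefore given only as listed, and its cause was not tested. Without irradiated replicates 1 and 4, limma called Mki67 alone of the 41, where 6 of 13378 genes were called lower (0.0448%). In the same libraries edgeR on reads called Mki67, Top2a, Aspm and Prc1, where 88 of 13509 were called lower (0.651%).

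**Figure D5:**
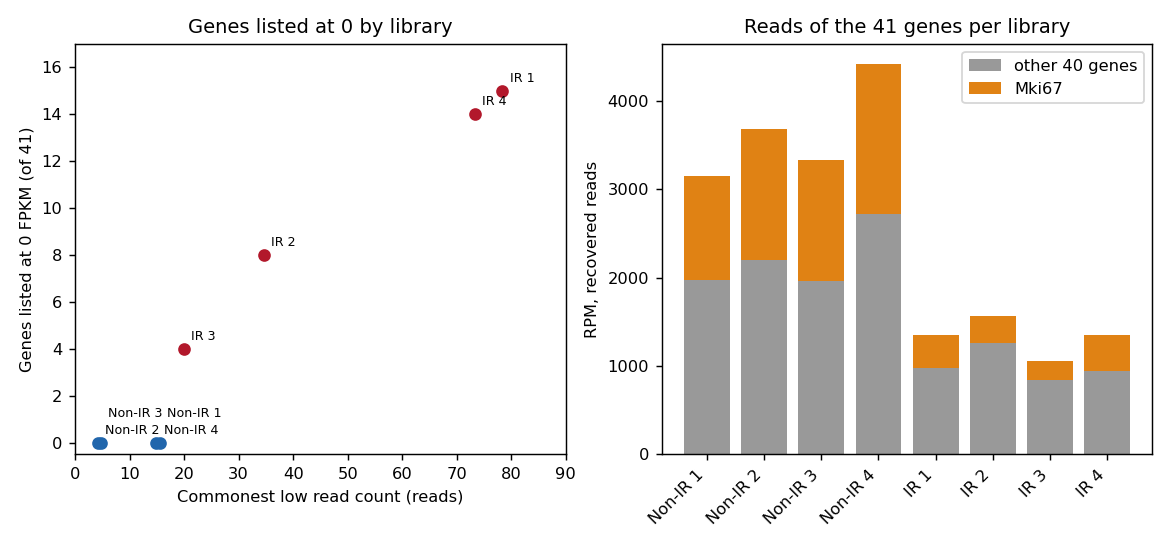
Left, number of the 41 genes listed at 0 in each library against the read count at which genes with few reads piled up, irradiated libraries in red and nonirradiated ones in blue. Right, RPM of the 41 genes per library, with the share of Mki67 on top, 1060 to 1561 in irradiated and 3145 to 4423 in nonirradiated libraries. The irradiated libraries at 73.3 and 78.3 reads list 14 and 15 genes at 0, and all 4 nonirradiated libraries, at 4.13 to 15.6 reads, list 0.

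Dividing reads by that pile-up count gives a rough number of units, which stand for distinct fragments only as an assumption. On this scale the irradiated libraries together held 652983 units and the nonirradiated ones 3327239. Mki67 had 182 and 4761 units, a ratio of shares of 0.195 (exact 95% interval 0.167 to 0.226, counting error only). Low genes rested on few units: Plk1 had 1 and 35 (ratio 0.146, interval 0.00358 to 0.866), Cenpa 1 and 36 (0.142, 0.00349 to 0.841), and Espl1 3 and 62 (0.247, 0.0495 to 0.755). For Ccnb2, with 1 and 20 units, the interval of 0.00615 to 1.59 includes equal shares. All of these intervals leave out the spread between libraries. In edgeR on reads Plk1, Cenpa, Espl1 and Ccnb2 did not pass (adjusted p = 0.451, 0.770, 0.611 and 0.935). Only 16 of the 41 had enough units for edgeR, which called 10 of them lower (62.5%, against 3.99% of the 5842 genes tested): Ccna2, Incenp, Cenpe, Cenpf, Mki67, Top2a, Smc2, Ncapd2, Aspm and Prc1. The filter of this test could be met by the nonirradiated libraries alone, and Incenp had 7 and 152 units and Ncapd2 12 and 162. The 62.5% is therefore a share of genes favoured by a high nonirradiated level, and is given as description only.

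Of a list of further genes of cell division, 112 were in the table and 109 were tested. None passed in limma, 22 were lower at an unadjusted p under 0.05 (20.2%, against 7.21% of all genes) and 4 were higher (3.67%, against 5.68%). The log2 change was below 0 for 81 (74.3%, against 56.1%), with a median of −0.53, or −0.52 with the 3 genes at 0 in all irradiated libraries set to a bound. In edgeR on reads 2 of 104 were lower (1.92%, against 0.48% of all genes): Hjurp (log2 change −2.16, adjusted p = 0.0136), the chaperone that deposits Cenpa, and Casc5 (−1.95, adjusted p = 0.0189), the kinetochore scaffold Knl1. Hjurp was at 11.6, 13.7, 10.2 and 10.4 FPKM against 25.1, 34.3, 33.4 and 45.4, and Casc5 at 1.88, 3.78, 3.31 and 3.2 against 8.85, 8.94, 9.18 and 12. Both stayed apart between the groups.

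Values of the other genes with the smallest p in FPKM follow. Cks1b, a small Cdk-binding protein, was at 0, 0, 1.2 and 0 FPKM against 3.59, 4.09, 7.26 and 10.1 (log2 change −2.48, limma adjusted p = 0.0899). Ska1, of the outer kinetochore, was at 0, 0, 0.0423 and 0 against 2.71, 2.65, 2.67 and 1.35 (−1.70, limma adjusted p = 0.103). Cdc25b, a phosphatase that activates Cdk1 at mitotic entry, was at 6.35, 2.12, 6.8 and 4.87 against 34.6, 16, 12.1 and 14.8 (−1.72, limma adjusted p = 0.155). In RPM the groups of Cdc25b overlapped, at 25.7, 8.83, 21.3 and 19.8 against 33.9, 28.2, 27.8 and 15.3 (edgeR −0.53, adjusted p = 0.932), and its FPKM per RPM varied 4.25-fold. Troap was listed at 0 in all 4 irradiated libraries and at 3.09, 3.77, 1.43 and 2.36 FPKM in nonirradiated ones. It did not pass in limma (adjusted p = 0.0961) or edgeR (adjusted p = 0.104). It passed in DESeq2 (adjusted p = 2.71e-05) and in limma on log2 RPM (adjusted p = 0.0476). With a floor of 3 units over the irradiated group, its share was 1.83-fold below that of its 28 nonirradiated units. This fold leaves out counting error in the 28 units, and the exact 95% interval of the ratio of shares reached 0.718. Gsg2, the histone kinase haspin, was also listed at 0 in all 4, against 1.49, 1.01, 2.23 and 2.85 FPKM. It did not pass in limma (adjusted p = 0.151), edgeR (adjusted p = 0.111) or limma on log2 RPM (adjusted p = 0.0534), but passed in DESeq2 (adjusted p = 9.04e-05). On the same floor its share was 1.57-fold below that of its 24 nonirradiated units, and the exact 95% interval of the ratio reached 0.847. Troap and Gsg2 entered these tests through their nonirradiated level alone and were named for a small p in these data. Their calls and folds are therefore given as description only.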

How the data were processed

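The authors' table holds FPKM and estimated counts per gene, per the file headers. The submitters' processing notes name cutadapt 1.9.3, HISAT2 2.0.4, Cufflinks, Cuffdiff and build mm10, without role or order. The deposited counts were whole multiples of 1 step per library (0.871 to 1.10), within 0.02 for 92.6% to 96.4% of values below 2000 steps. Division by that step gave the reads. Low genes piled up at a read count located between 3.5 and 300 reads, and reads divided by it gave units.

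Genes whose mean over the 8 libraries reached 0.5 FPKM were tested on log2(FPKM + 1) by limma 3.58.1 (R 4.3.3), with trend and robust moderation. This scale understates the change of low genes. Benjamini-Hochberg adjustment ran over all genes tested, with a threshold of 0.05. Counts over a filter on low values hold genes kept by their nonirradiated level: all 41 passed, 37 of them with an irradiated mean of at least 0.5 FPKM. edgeR 4.0.16 and DESeq2 1.42.0 on the rounded estimated counts turned to reads were alternatives, as were another pseudocount, other filters and scalings, a replicate block, a muscle covariate, left-out libraries, units and, added after seeing the data, limma on log2(RPM + 1), the edgeR fits without a library and the fit of edgeR without irradiated replicates 1 and 4. Scripts were tested on simulated counts that had no pile-up and had FPKM proportional to reads. That test therefore does not cover these features of the libraries.

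Members and lists were chosen with earlier results of these data known. Every one of the 41 could be named. Values in every library went to called genes and, in each function group, to the 2 with the smallest p and the 2 with the highest mean FPKM. Those of Top2a, Ncapd2, Smc2, Incenp, Cenpe, Ndc80, Ccnb1, Hmmr and Casc5 were added after their values were seen. Of the other genes of cell division, the called ones and the 6 with the smallest p are named. Coordinates are from GENCODE M21.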

Additional observations from a re-analysis of the deposited data

Results flagged for a closer look

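In 10 of 82 groups of 4 libraries, 1 library stood far from the other 3 on the log2(FPKM + 1) scale by Dixon's criterion. For normally spread values chance meets it in about 1 of 20 groups, but 3 zeros beside 1 higher value always meet it. All 10 were irradiated groups, and 6 of them were genes at 0 in 3 irradiated libraries. No nonirradiated library listed a 0, so the count of 10 cannot be set against chance. Irradiated replicate 2 was high for Ccnb2 (4.08 FPKM, the others at 0), Cdc25c (1.01, the others at 0), Cenpa (2.51, the others at 0), Aurkb (22.9, the others at 0 to 0.684) and Cenpf (7.99, the others at 3.21 to 3.46). Irradiated replicate 3 was high for Plk1 (1.11), Ndc80 (0.963) and Espl1 (0.831), with the others at 0. Irradiated replicate 4 was low for Bub3 (0.133, the others at 13.8 to 15.1) and Mad2l1 (0, the others at 8.99 to 14.0). The cause was not tested.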

How the results depend on the processing

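The median log2 change of the 41 genes stayed below 0 under all 21 other settings (−2.03 with a pseudocount of 0.1), and between −1.48 and −1.16 without each library in turn. Of 836 single-gene values under other settings, 29 turned direction, in 9 genes, and 32 genes had none.

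Genes called over the whole table numbered 33, and 16 with the replicate block, 133 in edgeR, 151 in edgeR without a filter, 707 in DESeq2, 526 in edgeR on units, 9 without irradiated replicates 1 and 4, 0 with the muscle covariate (825 at an unadjusted p under 0.05), 254 in limma on RPM, and 4 to 76 without each library in turn. Mitosis genes called lower numbered 4 in edgeR, 5 without a filter, 8 in DESeq2 (which added Ccna2, Top2a, Smc2 and Ncapd2 to the edgeR calls), 10 on units, 6 in limma on RPM, 0 with the muscle covariate and 0 to 2 without each library in turn (0 without nonirradiated replicate 2, 3 or 4, 2 without irradiated replicate 3). In edgeR without each library in turn they numbered 1 to 5 (1 without irradiated replicate 3 or nonirradiated replicate 4, 2 without nonirradiated replicate 2 or 3). Genes with a log2 change below 0 numbered 37 to 40 without each library in turn, and 16 on units, where 16 were tested. The filter on units could be met by the nonirradiated libraries alone. Other genes of cell division called numbered 2 in edgeR with and without a filter, 8 in DESeq2, 8 on units and 5 in limma on RPM.

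Log2 changes that turned direction were as follows, and the cause was not tested. Foxm1 was at 0.16 with quantile normalization, 0.61 without irradiated replicate 1 and also without 1 and 4, 0.12 without nonirradiated replicate 2 and 0.39 with the muscle covariate. Smc2 was at −0.11 with quantile normalization, −1.12 in edgeR, −1.14 without a filter, −1.07 in DESeq2, −1.18 on units, −1.01 in limma on RPM, −1.30 without irradiated replicates 1 and 4, −0.39 without 1, −0.30 without 4, −0.0606 without nonirradiated replicate 1 and −0.00256 without 2. Smc4 was at −0.64 in edgeR, −0.66 without a filter, −0.60 in DESeq2 and on units and −0.59 in limma on RPM. Without irradiated replicate 1, Aurka was at 0.068, and without 1 and 4, Bub1b was at 0.036, Bub3 at 0.36 and Ube2c at 0.0046. Without irradiated replicate 4, Bub3 was at 0.35, Ube2c at 0.26 and Ect2 at 0.24, and without replicate 2, Cdc20 was at 0.55. Without each library in turn Foxm1 ranged from −0.57 to 0.61, Bub3 from −0.92 to 0.35, Smc2 from −0.39 to 0.70, Ube2c from −0.68 to 0.26, Ect2 from −0.79 to 0.24, Aurka from −1.01 to 0.068 and Cdc20 from −0.64 to 0.55.

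The labels do not say whether equal replicate numbers mark the same mouse. The correlations of same-numbered deviations were 0.020, −0.013, 0.012 and 0.090, and those of the other pairs ran from −0.088 to 0.078. Correlations this small cannot decide whether same-numbered libraries share a mouse. With the replicate block Mki67 was called (adjusted p = 0.0423) and no other of the 41. Few units limit what can be seen of low genes in the irradiated libraries.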

Other observations

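Of the further genes of cell division, limma gave 4 a higher irradiated level with an unadjusted p below 0.05, and none of them passed after adjustment. They were Zwint, Arpp19, Cdc23 and Haus2, with log2 changes of 0.75, 0.69, 1.23 and 1.18 in FPKM and of 0.53, 0.29, 0.14 and 1.16 in edgeR on reads (adjusted p = 0.427, 0.923, 0.989 and 0.625). Their groups overlapped in both units, FPKM per RPM varied 4.71-fold for Cdc23, and they were named after their values were seen.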
